A study of Mus musculus with 23 samples.

Results

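The genes described here are 30 that make cholesterol or control how much of it a cell makes and holds. They were taken from the hippocampal count table by gene symbol, and all 30 were found among its 55335 genes. By role they are 9 enzymes of the mevalonate branch, which runs from acetyl-CoA to the isoprenoid diphosphates, 12 enzymes of the sterol branch, which runs from squalene to cholesterol, 5 regulators, and 4 proteins of transport and storage. The list does not cover every step of the pathway. It holds Srebf1 and Srebf2, the transcription factors after which the SREBP system is named, their escort Scap, and the retention proteins Insig1 and Insig2.

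Cells in the brain make nearly all of their own cholesterol, because plasma lipoproteins hardly cross the blood-brain barrier, and astrocytes and myelinating oligodendrocytes are its main producers. When the membrane of the endoplasmic reticulum is poor in sterol, Scap carries the SREBP proteins to the Golgi, where they are cut and released to the nucleus to switch on the synthesis genes. When sterol is abundant, the Insig proteins hold the complex back and the genes fall quiet. The same system reaches the enzymes of fatty acid synthesis and desaturation, including stearoyl-CoA desaturase (SCD), the enzyme that the study inhibited.

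Whole hippocampus was sequenced from 23 mice, which per the study's methods were female. Among its alleles, the 3xTg strain carries human APP and tau transgenes with disease mutations under the Thy1.2 element, which drives expression in neurons. The WT mice, labelled C57BL/6J x 129S1, carry neither transgene and are the strain controls. WT-8M (n = 4) and 3xTg-8M (n = 4) were untreated and 8 months old. The other groups were 10 months old and had 28 days of infusion into a lateral ventricle. WT-D (n = 4) and 3xTg-D (n = 4) received the vehicle, 0.8% DMSO in artificial cerebrospinal fluid, and WT-S (n = 3) and 3xTg-S (n = 4) received 80 µM of the SCD inhibitor ab142089 in that vehicle. Between the 8-month and the infused mice, age and surgery differ together and cannot be told apart, so only their strain differences are compared and never their levels.

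Counts in genes ranged from 12802267 to 36686413 per library. As a check of the labels, Thy1, whose sequence is shared with the transgene cassette, was higher in every 3xTg group, with a log2 fold change of 1.84 at 8 months, 1.52 under vehicle and 1.42 under the inhibitor. Choroid plexus markers summed to between 36.8 and 389 CPM (read counts scaled to library size), and 3xTg-8M replicate 4, WT-S replicate 2 and 3xTg-S replicate 2 held 260.6 CPM or more. In bulk tissue, fewer cells of a type and less RNA per cell cannot be told apart.

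Stretches of sequence before 3 of the genes are shown because they hold the elements through which SREBP proteins and their partners are known to act. Hmgcs1, the cytosolic HMG-CoA synthase, is the most abundant member. Sc5d, lathosterol oxidase, is a member that was higher in 3xTg-D than in WT-D. Mvd, the mevalonate diphosphate decarboxylase, is a neighbour in the pathway that did not pass the test. Capitals mark a match on either strand to TCACNCCAC (a sterol regulatory element), CACGTG (E-box), CCAAT or GGGCGG (GC box). The sequences are RefSeq's on GRCm38, and each ends at the base before the annotated start. Shown are 150 bases for Hmgcs1 and 110 for Sc5d and Mvd, fewer than the 250 searched below. In those 250 bases Sc5d holds 2 GC boxes and Mvd 1, all outside the stretches shown. Hmgcs1 holds 3 CCAAT matches there, of which 1 is shown.
Hmgcs1, chr13:119690201-119690350, plus strand: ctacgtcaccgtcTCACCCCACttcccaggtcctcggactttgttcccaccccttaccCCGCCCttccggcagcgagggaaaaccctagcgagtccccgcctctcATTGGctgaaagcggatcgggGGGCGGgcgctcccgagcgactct
Sc5d, chr9:42264301-42264410, minus strand: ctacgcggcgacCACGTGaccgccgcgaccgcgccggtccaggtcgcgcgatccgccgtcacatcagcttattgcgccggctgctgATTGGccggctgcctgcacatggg
Mvd, chr8:122443423-122443532, minus strand: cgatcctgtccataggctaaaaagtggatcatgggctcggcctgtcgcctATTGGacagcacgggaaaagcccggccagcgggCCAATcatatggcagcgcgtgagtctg

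The table of promoters held 24 of the 30 members, and the 250 bases before each start were searched on both strands. The sterol regulatory element was found in 1 of 24, Hmgcs1, at positions -137 to -129 from the start, which is 4.2% of members against 1.22% of 27025 genes. This motif is a strict spelling of a variable element, and its absence says only that these letters are not in the window. The E-box was found in 5 of 24 members (20.8%), Hsd17b7, Insig1, Dhcr7, Sc5d and Scap, against 6.86% of all genes and 9.58% of the 11999 genes that were expressed here. In Sc5d it lies at positions -98 to -93. CCAAT was found in 22 of 24 members (91.7%), against 37.49% of all genes and 40.01% of the expressed ones. The GC box was found in 21 of 24 (87.5%), against 35.36% and 61.52%. All these are matches of letters, not sites of binding. Acat1, Fdft1, Fdps, Npc1, Sqle and Stard4 had no entry.

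Every member was expressed. Per kilobase of transcript, the median member stood at 13.1 CPM over the 23 libraries and the median of the 16555 genes that passed the filter at 5.96, and 25 of 30 members were above the latter. Hmgcs1 led with 87.4 ± 11.1 CPM per kb (SD, n = 23). Msmo1, the methylsterol monooxygenase that starts removal of the methyl groups at carbon 4 of the sterol ring, followed with 61.3 ± 8.61. Every library of both was above every value of the next members. Srebf2 stood at 33.3 ± 2.08, Acat1, the mitochondrial acetoacetyl-CoA thiolase, at 32.2 ± 1.62, and Sqle, squalene epoxidase, at 26.0 ± 2.05. The ranges of Srebf2 and Acat1 overlapped, so their order is not fixed by these libraries. Srebf1, the factor best known for fatty acid genes, stood at 8.31 ± 0.986 CPM per kb, below all 23 values of Srebf2. Insig2 (25.3 ± 1.97) and Insig1 (20.2 ± 2.76) were near each other. Transport proteins Npc1 (15.4 ± 1.05) and Npc2 (15.2 ± 1.27), which pass cholesterol out of lysosomes, were equal within their spread. That holds for the transcript lengths used, 5224 and 3299 bases. At the low end stood Lbr (4.45 ± 0.316), Fdps (1.30 ± 0.293) and Idi1 (0.97 ± 0.188).

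**Figure D1:**
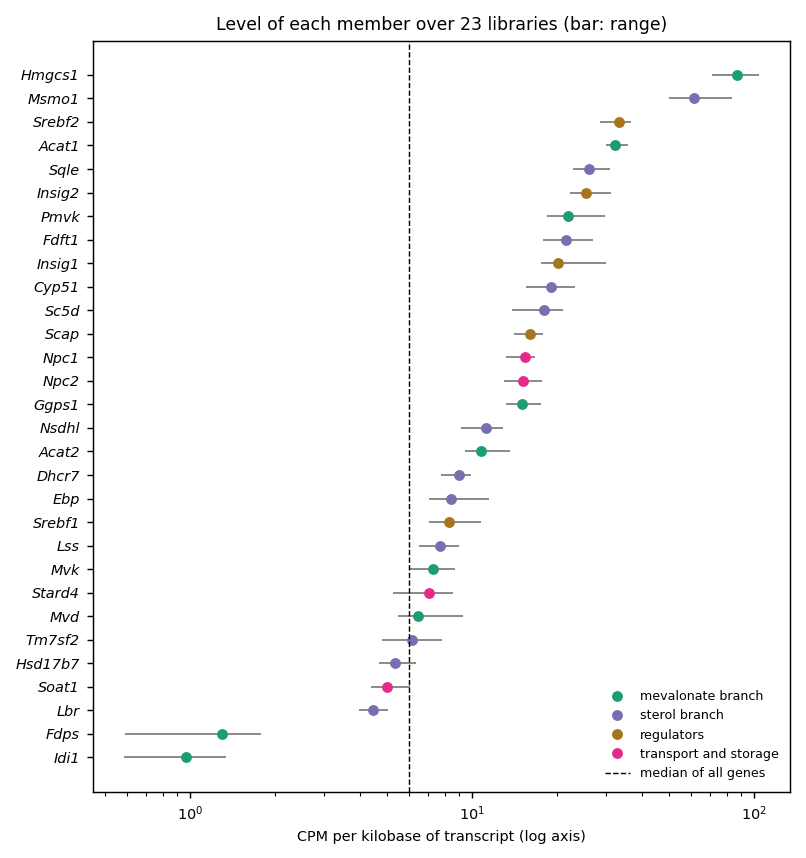
Level of each member in CPM per kilobase of transcript on a log axis, as the mean over 23 libraries (point, coloured by role) with the range (bar); the dashed line is the median of all genes that passed the filter (5.96). Hmgcs1 and Msmo1 stand at 87.4 and 61.3, and Fdps and Idi1 near 1.30 and 0.97.

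The 2 lowest members are uncertain. Fdps, farnesyl diphosphate synthase, shares at least 95% identity over up to 76.8% of its transcript with processed copies elsewhere in the genome, and an overlapping gene model covers 81.6% of it. Idi1, isopentenyl diphosphate isomerase, has a copy identical over 684 bases. The table tallies reads that map to several places, or to overlapping genes, in lines apart from the genes, and how many reads of these members went there was not tested. Acat2, the cytosolic thiolase, shares 65.6% of its transcript with Acat3 and 19.8% with Tcp1. Fdft1, squalene synthase, shares 33.7% with a processed copy and 20.9% with Ctsb, which overlaps it. Smaller overlaps with a gene on the opposite strand affect Cyp51 (Akap9), Ggps1 (Arid4b), Npc1 (Rmc1) and Srebf1 (Rai1). They also affect Hmgcs1 (Gm48342, 16.2% of the member's transcript), Scap (5830462I19Rik, 18.9%), Lbr (Dnah14, 12.5%) and Lss (4930483K19Rik, 7.5%). Gm48342 itself held 3 to 56 counts per library. No source used here says whether strand was used in counting. Msmo1 and Sqle had no such match, and that of Sc5d covered 1.7% of its transcript.

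Strain was compared first in the untreated mice of 8 months, to ask whether the pathway already differed at that age. No member passed the test, and the sizes were small: the median log2 fold change of the members was 0.108 in 3xTg-8M against WT-8M, and 0.006 over all 15483 genes tested. The edgeR quasi-likelihood test called 0 of 30 members at an adjusted p under 0.05, against 2.58% of all genes, and DESeq2 called 1, Cyp51. At an unadjusted p under 0.05 there were 8 of 30 members, against 17.4% of all genes. The log2 fold change was above 0 for 23 of 30, against 51.3% of all genes. In 3 members the groups did not overlap, against 11.2% of all genes.

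These 3 were Cyp51, Ggps1 and Idi1, the members of smallest p. Cyp51, the lanosterol demethylase, was at 76.1, 77.7, 68.2 and 67.9 CPM in WT-8M and at 81.4, 84.7, 82.5 and 91.7 CPM in 3xTg-8M. Every 3xTg-8M library was above every WT-8M library, with a log2 fold change of 0.23 (SE 0.07, edgeR adjusted p = 0.107). Ggps1, which makes the geranylgeranyl diphosphate used to prenylate proteins and so sits off the route to sterols, was at 73.1, 68.9, 62.9 and 71.5 CPM in WT-8M and at 60.6, 58.9, 60.6 and 59.7 CPM in 3xTg-8M. Its log2 fold change was -0.20 (SE 0.06, edgeR adjusted p = 0.123), with no overlap. Idi1 was at 3.97, 3.31, 3.23 and 3.24 CPM in WT-8M and at 2.63, 1.77, 2.33 and 2.56 CPM in 3xTg-8M, a log2 fold change of -0.55 (SE 0.17, edgeR adjusted p = 0.12). Libraries did not overlap there either, but the level is low and the gene is among the uncertain ones.

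Values of the remaining mevalonate enzymes were above 0, and none passed the test. The kinases Mvk and Pmvk had log2 fold changes of 0.29 (SE 0.10) and 0.24 (SE 0.10), Mvd of 0.32 (SE 0.13) and Hmgcs1 of 0.17 (SE 0.09), with unadjusted p from 0.013 to 0.0694. Of the sterol branch 9 of 12 were above 0, with a median of 0.098. Ebp, the sterol isomerase, was at 0.28 (SE 0.10, unadjusted p = 0.0143), while Msmo1 was at 0.07 (SE 0.12) and Sc5d at 0.08 (SE 0.06). All 5 regulators lay between 0.01 (Srebf1) and 0.13 (Scap and Srebf2). Npc2 was at 0.17 (SE 0.07) and Npc1 at -0.05 (SE 0.08). The mean over members of log2 CPM, each centred on its own mean of 23 libraries, is called the module score here. It was 0.043 ± 0.07 in 3xTg-8M and -0.028 ± 0.04 in WT-8M (SD, n = 4 each), with overlap. Replicate 4 of 3xTg-8M, the library with the most choroid plexus RNA and with 30.9% of its reads outside genes, had the highest score, 0.135, and the difference of 0.071 was 0.04 without it.

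Taken singly, the other genes given here for every library overlapped between strains at 8 months. Hmgcs1 was at 330, 289, 272 and 255 CPM in WT-8M and at 293, 312, 324 and 360 CPM in 3xTg-8M. Sqle was at 72.5, 74.8, 66.7 and 62.9 CPM in WT-8M and at 63.5, 76.2, 76.4 and 85.1 CPM in 3xTg-8M. Insig1 was at 50.4, 52.9, 49.6 and 47.5 CPM in WT-8M and at 48.1, 52.0, 53.5 and 63.5 CPM in 3xTg-8M. In all of these, replicate 4 of 3xTg-8M was the highest of the 8 libraries, which also holds for Msmo1, at 132, 135, 131 and 112 CPM in WT-8M and at 114, 122, 126 and 171 CPM in 3xTg-8M. Sc5d was at 92.1, 87.2, 88.9 and 89.1 CPM in WT-8M and at 91.1, 97.2, 101 and 89.7 CPM in 3xTg-8M, with a narrow spread in WT-8M. Srebf2 was at 145, 161, 171 and 161 CPM in WT-8M and at 174, 187, 178 and 157 CPM in 3xTg-8M, and here replicate 4 was the lowest of its group. Srebf1 was at 31.5, 31.6, 37.5 and 34.3 CPM in WT-8M and at 32.6, 35.6, 35.1 and 31.9 CPM in 3xTg-8M. Npc1 was at 71.4, 81.4, 87.1 and 84.7 CPM in WT-8M and at 83.7, 81.1, 79.4 and 69.0 CPM in 3xTg-8M. The groups overlapped for each of these genes. As a list, the 5 regulators had a score of -0.126 to -0.027 in WT-8M and -0.026 to 0.044 in 3xTg-8M, a difference of 0.097 with no overlap. The sterol branch (0.091), the mevalonate branch (0.057) and the transport and storage genes (0.011) overlapped. The neuronal score was 0.071 lower in 3xTg-8M with no overlap, and its part in these values was not tested.

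In vehicle-infused mice of 10 months, 2 enzymes of the sterol branch were higher in 3xTg-D than in WT-D. Msmo1 was higher by 1.22-fold and Sc5d by 1.24-fold. The edgeR test called these 2 of 30 members, against 1.39% of 15528 genes, and called none lower. All 12 sterol enzymes and 26 of 30 members had a log2 fold change above 0, against 49.0% of all genes, with a median of 0.106 against -0.003 over all genes. At an unadjusted p under 0.05 there were 7 of 30, all higher in 3xTg-D, against 13.1% of all genes. The groups did not overlap for 3 members, against 7.97% of all genes.

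Msmo1 lies on chromosome 8 from 64718139 to 64733792 (GRCm38). It was at 121, 109, 103 and 103 CPM in WT-D and at 138, 131, 133 and 130 CPM in 3xTg-D. All of the 3xTg-D libraries were above all of the WT-D libraries, and the log2 fold change was 0.29 (SE 0.06, edgeR adjusted p = 0.027). Sc5d lies on chromosome 9 from 42251595 to 42264256. It was at 73.6, 84.6, 74.2 and 66.8 CPM in WT-D and at 91.6, 97.6, 89.5 and 94.2 CPM in 3xTg-D, again with no overlap, for a log2 fold change of 0.31 (SE 0.07, edgeR adjusted p = 0.0427). These calls rest on the full groups. Leaving out 1 library at a time kept the log2 fold changes between 0.26 and 0.38 but left both genes uncalled for WT-D replicate 3 or 4 and for 3xTg-D replicate 1, 2 or 4, Sc5d uncalled for WT-D replicate 1 and Msmo1 for WT-D replicate 2. The third member whose groups did not overlap was Soat1, which esterifies cholesterol for storage, chosen after its values were seen. It was at 36.6 to 41.8 CPM in WT-D and at 42.2 to 47.1 CPM in 3xTg-D, with a log2 fold change of 0.12 (SE 0.07, edgeR adjusted p = 0.461).

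**Figure D2:**
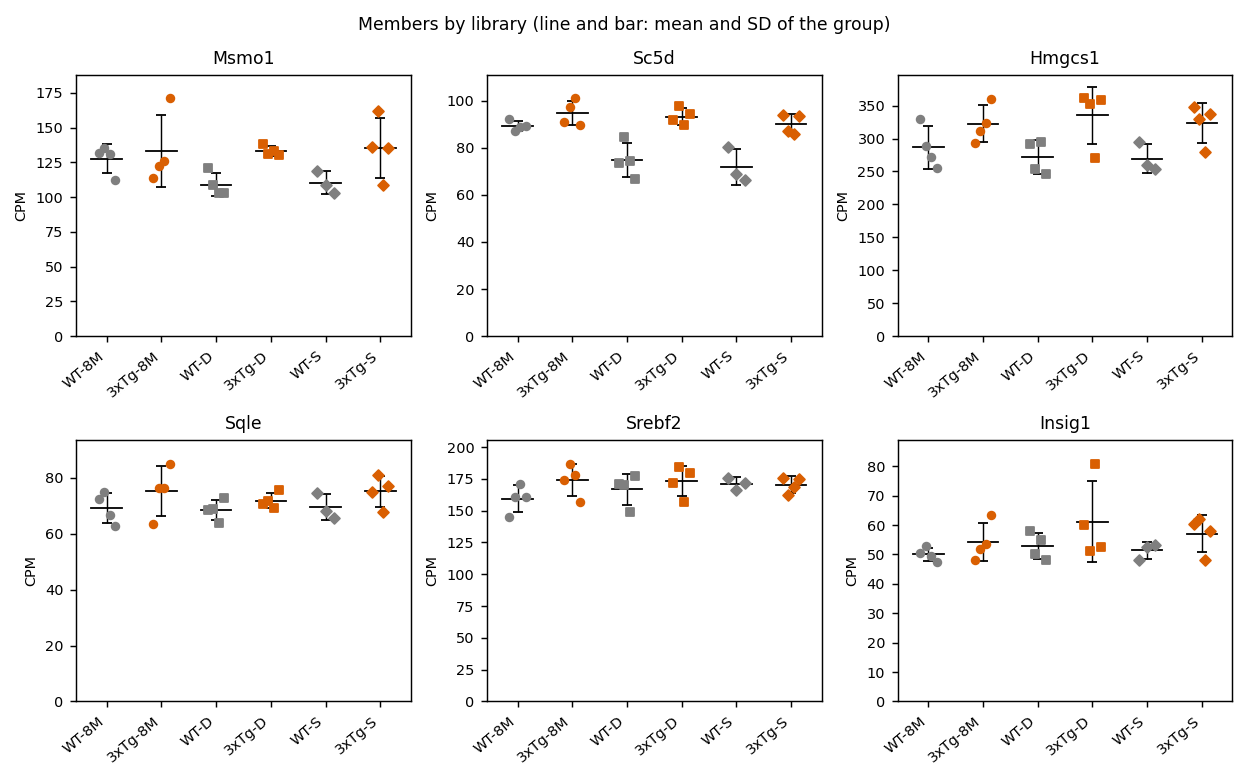
CPM of 6 members in each library, by group (circles for untreated at 8 months, squares for vehicle, diamonds for inhibitor, grey for WT and orange for 3xTg), with the group mean and SD in black. The 4 libraries of 3xTg-D stand above all 4 of WT-D for Msmo1 and Sc5d, while the groups overlap for Hmgcs1, Sqle, Srebf2 and Insig1.

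Hmgcs1 had a fold change of the same size that did not pass the test. It was at 292, 254, 295 and 246 CPM in WT-D and at 361, 352, 270 and 358 CPM in 3xTg-D, with a log2 fold change of 0.30 (SE 0.09, edgeR adjusted p = 0.177). Replicate 3 of 3xTg-D lay among the WT-D values, and without it the log2 fold change was 0.40 and edgeR's adjusted p was 0.013. In all, 2 of 14 alternative fits called Hmgcs1, the one without that replicate among them. That library also had the lowest oligodendrocyte marker score of all 23, -0.704 against -0.067 to 0.198 in the rest of its group, and the highest values of its group for Insig1 (80.9 CPM against 51.1 to 60.0) and Srebf1 (46.5 CPM against 30.4 to 35.4). The part of its cell makeup in these values was not tested.

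The rest of the sterol branch was not called. Fdft1 was at 0.20 (SE 0.07, unadjusted p = 0.0101), Cyp51 at 0.16 (SE 0.07, unadjusted p = 0.0308), Hsd17b7, a reductase of the same demethylation that Msmo1 begins, at 0.18 (SE 0.08, unadjusted p = 0.0482), and Lss, lanosterol synthase, at 0.13 (SE 0.07). Sqle, often regarded as a control point of the branch, was at 68.4, 68.9, 63.8 and 72.9 CPM in WT-D and at 70.8, 71.9, 69.2 and 75.6 CPM in 3xTg-D, a log2 fold change of 0.06 with a 95% interval from -0.06 to 0.18. In the mevalonate branch, Mvk, Mvd and Pmvk, which had the larger values at 8 months, were at 0.05, 0.05 and 0.12, and Ggps1 was at -0.14 (SE 0.08).

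The regulators showed no call. Srebf2 was at 171, 170, 149 and 177 CPM in WT-D and at 172, 184, 157 and 180 CPM in 3xTg-D, and its 95% interval ran from -0.09 to 0.19. Srebf1 was at 35.8, 42.0, 34.5 and 38.1 CPM in WT-D and at 30.4, 33.9, 46.5 and 35.4 CPM in 3xTg-D, an interval from -0.30 to 0.21. A rise of up to 0.19 or 0.21 on the log2 scale thus lies within these intervals. Insig1, itself an SREBP target, was at 58.0, 50.1, 54.8 and 48.2 CPM in WT-D and at 60.0, 51.1, 80.9 and 52.6 CPM in 3xTg-D, a log2 fold change of 0.21 (SE 0.13) in which replicate 3 stood highest. Npc1 was at 80.4, 85.5, 72.3 and 84.7 CPM in WT-D and at 84.5, 84.8, 84.2 and 85.6 CPM in 3xTg-D, a log2 fold change of 0.07 (SE 0.06). Stard4, which moves cholesterol through the cytosol, was at 0.17 (SE 0.07, unadjusted p = 0.04).

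As a module, the members stood at -0.084, -0.014, -0.109 and -0.066 in WT-D and at 0.035, 0.057, 0.08 and 0.062 in 3xTg-D. All 4 libraries of 3xTg-D were above those of WT-D, by 0.127 on average, and the pooled SD within groups was 0.048. The sterol branch alone differed by 0.151 and the transport and storage genes by 0.110, both with no overlap. The mevalonate branch differed by 0.138 and the regulators by 0.060, with overlap. No p is given for these scores, since the members were chosen with results of these data known.

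Among cell markers in the same comparison, 2 of 8 microglia genes were called, C1qa (0.49, SE 0.11) and C1qb (0.48, SE 0.10), and the summed microglia markers were 351 to 402.2 CPM in WT-D and 353.4 to 550.5 CPM in 3xTg-D. Of the 10 oligodendrocyte and the 10 astrocyte markers 0 were called, with sums of 4320 to 5508 against 3790 to 6068 CPM and of 5823 to 6064 against 5897 to 6528 CPM. The oligodendrocyte score was 0.028, 0.129, -0.169 and -0.159 in WT-D and 0.198, -0.067, -0.704 and 0.131 in 3xTg-D, so the lower mean of 3xTg-D (by 0.068) rests on replicate 3. The astrocyte score was 0.089 higher with overlap. The part of either in the module score was not tested. The 8 neuronal markers summed to 10850 to 11350 CPM in WT-D and 10050 to 10940 CPM in 3xTg-D, and their score was 0.073 lower with no overlap. The 6 thalamus markers, a sign of neighbouring tissue in the dissection, had a score 0.180 higher in 3xTg-D with no overlap. Replicate 3 of 3xTg-D was at 0.431 and the rest of its group at 0.013 to 0.096, against -0.116 to 0.009 in WT-D. Their summed CPM overlapped, at 98.5 to 115.3 in WT-D and 100.1 to 122.2 in 3xTg-D. Choroid plexus markers summed to 41.35 to 49.66 CPM in WT-D and 46.16 to 135.2 CPM in 3xTg-D. The part of these in the member values was not tested.

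**Figure D3:**
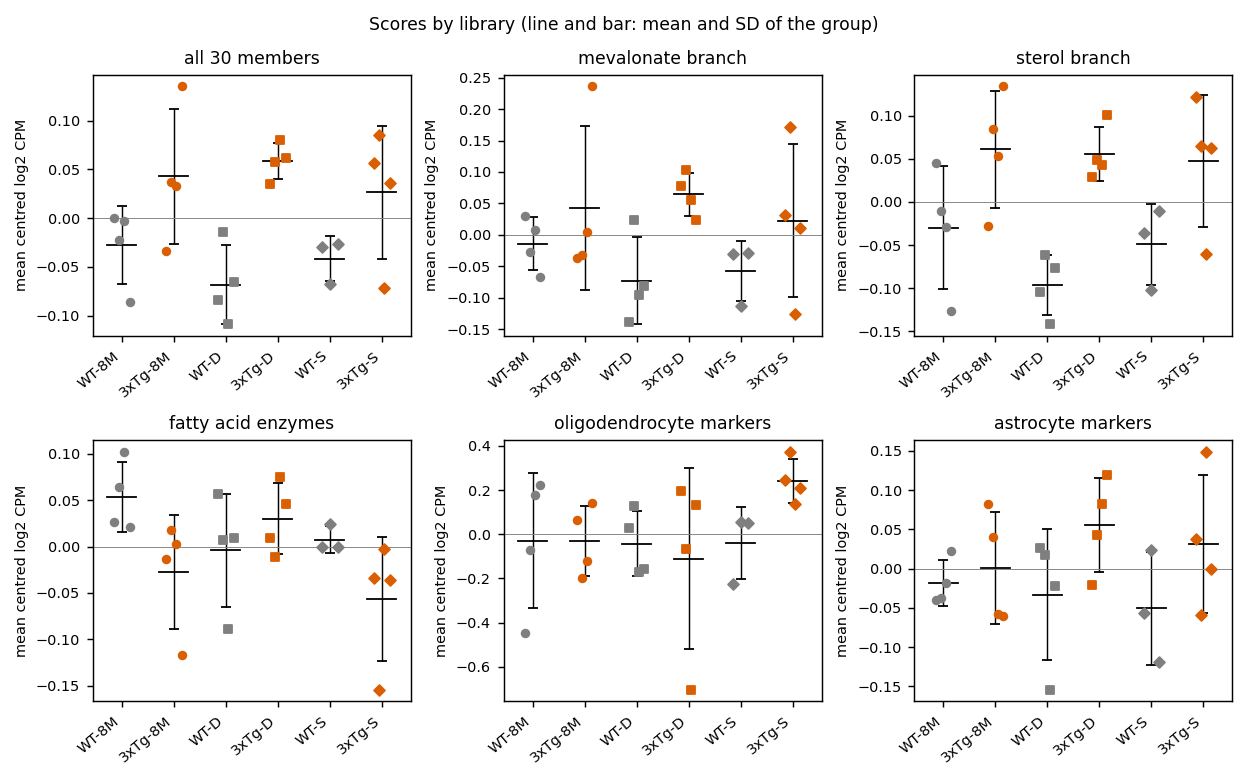
Mean centred log2 CPM in each library for the 30 members, their mevalonate and sterol branches, the 12 fatty acid enzymes, and the oligodendrocyte and astrocyte markers, by group (colours and symbols as for the member levels), with mean and SD. For all members and for the sterol branch the 3xTg-D points lie above the WT-D points, while the marker scores of those groups overlap.

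Under the inhibitor no member was called between strains. The module score was 0.068 higher in 3xTg-S with overlap, where it was 0.127 higher under vehicle with no overlap, and the sterol branch 0.097 higher with overlap, where it was 0.151. The overlap in both scores lay with 3xTg-S replicate 3, at -0.072 for the module and -0.06 for the sterol branch. The other 3xTg-S libraries were at 0.036 to 0.085 and at 0.062 to 0.122, above every WT-S library. Without that replicate the module difference was 0.101. Sc5d, Msmo1 and Hmgcs1 had log2 fold changes of 0.27 to 0.33. The interaction of strain and inhibitor, given with the inhibitor results, was called for no member. For 3xTg-S against WT-S edgeR called 0 of 30 members, against 1.32% of 15664 genes, and DESeq2 called 1, Sc5d. At an unadjusted p under 0.05 there were 5 of 30, against 10.6% of all genes. The log2 fold change was above 0 for 21 of 30, against 51.2% of all genes. The groups did not overlap for 2, Sc5d and Npc2, against 10.9% of all genes. Sc5d was at 80.4, 68.9 and 66.3 CPM in WT-S and at 93.8, 87.1, 86.0 and 93.4 CPM in 3xTg-S, a log2 fold change of 0.33 (SE 0.08, edgeR adjusted p = 0.0777). Msmo1 was at 119, 109 and 103 CPM in WT-S and at 136, 162, 109 and 135 CPM in 3xTg-S, a log2 fold change of 0.30 (SE 0.11, edgeR adjusted p = 0.329). Hmgcs1 was at 294, 260 and 253 CPM in WT-S and at 348, 330, 280 and 337 CPM in 3xTg-S, a log2 fold change of 0.27 (SE 0.08, edgeR adjusted p = 0.196). Srebf1 was at 36.4, 44.7 and 38.5 CPM in WT-S and at 31.7, 38.4, 31.2 and 34.1 CPM in 3xTg-S, a log2 fold change of -0.23 (SE 0.09, edgeR adjusted p = 0.372). Here oligodendrocyte markers moved as well: 3 of 10 were called, Cldn11 and Mobp among them, all higher in 3xTg-S, and their list summed to 4044 to 5147 CPM in WT-S and 6016 to 6823 CPM in 3xTg-S, with no overlap. Microglia markers did so too, with 3 of 8 called. The part of either cell type in the member values was not tested.

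The other genes given for every library were not called between strains under the inhibitor. Srebf2 was at 176, 166 and 172 CPM in WT-S and at 176, 162, 169 and 175 CPM in 3xTg-S. Sqle was at 74.6, 68.1 and 65.7 CPM in WT-S and at 74.8, 80.9, 67.7 and 77.2 CPM in 3xTg-S. Both overlapped between strains and with the vehicle groups. Insig1 was at 48.2, 52.7 and 53.2 CPM in WT-S and at 60.5, 61.9, 48.0 and 57.9 CPM in 3xTg-S, a log2 fold change of 0.15 (SE 0.09). Npc1 was at 71.4, 82.3 and 80.2 CPM in WT-S and at 78.3, 72.0, 84.8 and 78.6 CPM in 3xTg-S, a log2 fold change of 0.01. Cyp51 was at 61.0, 68.9 and 71.7 CPM in WT-S and at 78.3, 79.3, 66.5 and 78.2 CPM in 3xTg-S, a log2 fold change of 0.17 (SE 0.08). In Insig1 and Cyp51 alike, replicate 3 was the lowest of 3xTg-S.

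Set against vehicle-infused WT mice, the inhibitor-treated 3xTg mice gave 0 of 30 calls, against 2.29% of 15567 genes. DESeq2 called 2 members, Npc2 and Sc5d. At an unadjusted p under 0.05 there were 7 of 30 members, all higher in 3xTg-S, against 1403 genes higher and 1226 lower of the 15567. This comparison shares the WT-D libraries with that of the vehicle groups. Msmo1 was at 0.31 here and at 0.29 there, Sc5d at 0.27 and 0.31, Hmgcs1 at 0.25 and 0.30, and Npc2 at 0.23 and 0.06. Markers moved here too. Of the oligodendrocyte genes 4 of 10 and of the microglia genes 4 of 8 were called higher, with scores higher by 0.285 and 0.418, and the neuronal score was 0.123 lower, all with no overlap. Their part in the member values was not tested.

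**Figure D4:**
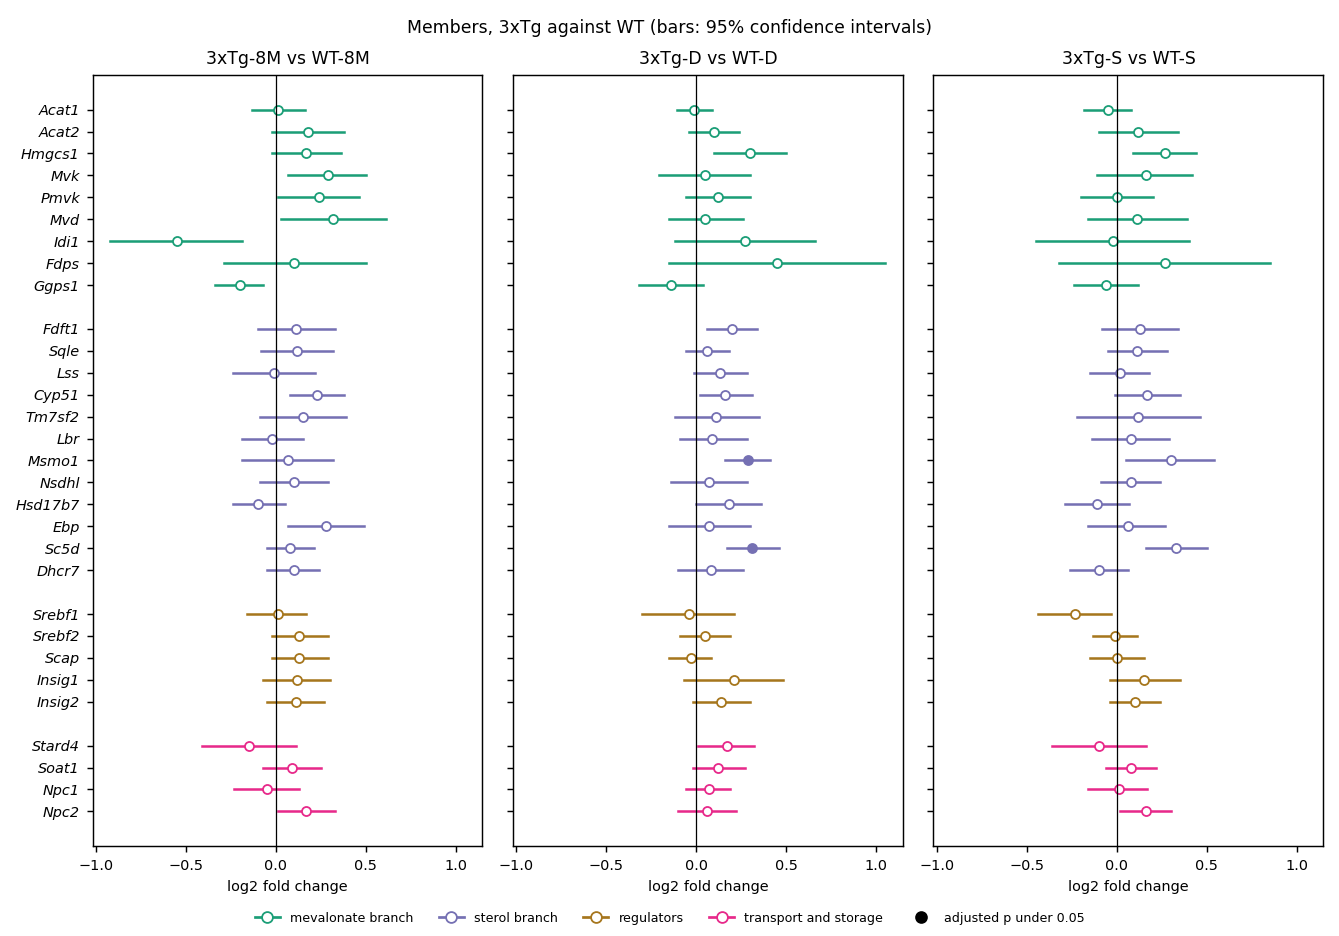
log2 fold change of each member in 3xTg against WT mice, untreated at 8 months, under vehicle and under the inhibitor, with 95% confidence intervals, coloured by role; filled points have an adjusted p under 0.05. Only Msmo1 and Sc5d under vehicle are filled, and all 12 sterol branch points of that panel lie above 0.

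Whether blocking SCD moved the cholesterol genes was asked within each strain, where the vehicle and inhibitor groups are of the same age and surgery. No member was called in 3xTg mice, in WT mice, or over both strains together. In 3xTg-S against 3xTg-D, edgeR called 0 of 30 members, and 0% of 15530 genes, and DESeq2 called 0 of the members. At an unadjusted p under 0.05 there were 3 of 30, against 11.2% of all genes. The log2 fold change was above 0 for 11 of 30, against 49.5% of all genes, and the groups did not overlap for 2, Npc2 and Soat1, against 6.85% of all genes.

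The smallest p fell on Hsd17b7, which was at 26.2, 28.6, 29.2 and 24.6 CPM in 3xTg-D and at 23.1, 21.5, 22.5 and 25.6 CPM in 3xTg-S. All but replicate 4 of 3xTg-S lay below the vehicle values, and the log2 fold change was -0.23 (SE 0.08, edgeR adjusted p = 0.378). Npc2 was at 51.3, 50.3, 42.8 and 53.1 CPM in 3xTg-D and at 54.8, 58.0, 53.5 and 53.8 CPM in 3xTg-S, a log2 fold change of 0.16 (SE 0.07, edgeR adjusted p = 0.436). Stard4 was at 34.6, 36.5, 41.0 and 40.7 CPM in 3xTg-D and at 33.5, 35.4, 28.7 and 36.1 CPM in 3xTg-S, a log2 fold change of -0.19 (SE 0.08, edgeR adjusted p = 0.438). These values overlap between groups for Hsd17b7 and Stard4. Msmo1 and Sc5d, the members called between strains, were at 0.02 (95% interval -0.18 to 0.22) and -0.05 (-0.16 to 0.06).

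The intervals bound what the inhibitor could have done. Of the 30 members 28 had a 95% interval within 0.5 of 0 on the log2 scale, which is a 1.41-fold change. The exceptions, Idi1 (lowest bound -0.72) and Fdps, are the low and uncertain genes. The median half-width was 0.17. Changes smaller than that would not have been detectable for most members. The intervals are not adjusted for the number of genes tested, so larger changes could go uncalled as well, as those of Hsd17b7 and Stard4 did. The module score was 0.026 ± 0.068 in 3xTg-S and 0.058 ± 0.019 in 3xTg-D, and the difference of -0.032 came to 0.001 without 3xTg-S replicate 3, whose score of -0.072 was the lowest of its group. By role, the transport and storage genes had a score of 0.023 to 0.097 in 3xTg-D and -0.034 to 0.022 in 3xTg-S, lower by 0.065 on average with no overlap. The mevalonate branch (-0.042), the sterol branch (-0.008) and the regulators (-0.044) overlapped. The oligodendrocyte list had 10 of 10 genes above 0 in this comparison, with a median of 0.287 and 0 called, and its part in the member values was not tested.

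The same was asked in WT mice, with 3 mice in WT-S. For WT-S against WT-D edgeR called 0 of 30 members, and 0% of 15724 genes, and DESeq2 called 0. At an unadjusted p under 0.05 there were 0 of 30, against 3.42% of all genes. The log2 fold change was above 0 for 17 of 30, against 50.6% of all genes. The groups did not overlap for 1, Acat1, against 4.90% of all genes. Acat1 was at 108, 108, 106 and 106 CPM in WT-D and at 121, 109 and 118 CPM in WT-S, a log2 fold change of 0.11 (SE 0.05, edgeR adjusted p = 0.981). Tm7sf2, a sterol reductase, was at 7.17, 8.15, 8.34 and 9.26 CPM in WT-D and at 9.23, 7.99 and 11.3 CPM in WT-S, a log2 fold change of 0.21 (SE 0.14). Dhcr7, the reductase that yields cholesterol in its branch, was at 24.8, 26.1, 21.9 and 25.0 CPM in WT-D and at 25.5, 27.3 and 26.1 CPM in WT-S, a log2 fold change of 0.11 (SE 0.08). Again 28 of 30 intervals lay within 0.5 of 0.

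Over both strains, with strain as a term and 15 libraries, 0 of 30 members were called by edgeR or by DESeq2, and edgeR called 0% of 16262 genes. At an unadjusted p under 0.05 there were 4 of 30, against 13.6% of all genes. They were Acat1 at 0.09 (SE 0.03, edgeR adjusted p = 0.259), Npc2 at 0.12 (SE 0.05, adjusted p = 0.29), Tm7sf2 at 0.21 (SE 0.09, adjusted p = 0.313) and Soat1 at -0.09 (SE 0.04, adjusted p = 0.347). Acat1 in 3xTg mice was at 105, 103, 106 and 113 CPM under vehicle and at 111, 109, 114 and 114 CPM under the inhibitor. Tm7sf2 there was at 8.17, 9.31, 9.05 and 9.13 CPM under vehicle and at 11.8, 11.6, 9.12 and 8.79 CPM under the inhibitor, so 2 of 4 were above every vehicle value. All 30 intervals lay within 0.5 of 0 here, from -0.46 (Fdps) to 0.40 (Tm7sf2). For Srebf2 the interval was -0.09 to 0.09, for Hmgcs1 -0.17 to 0.10, for Sqle -0.05 to 0.14 and for Insig1 -0.25 to 0.11.

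**Figure D5:**
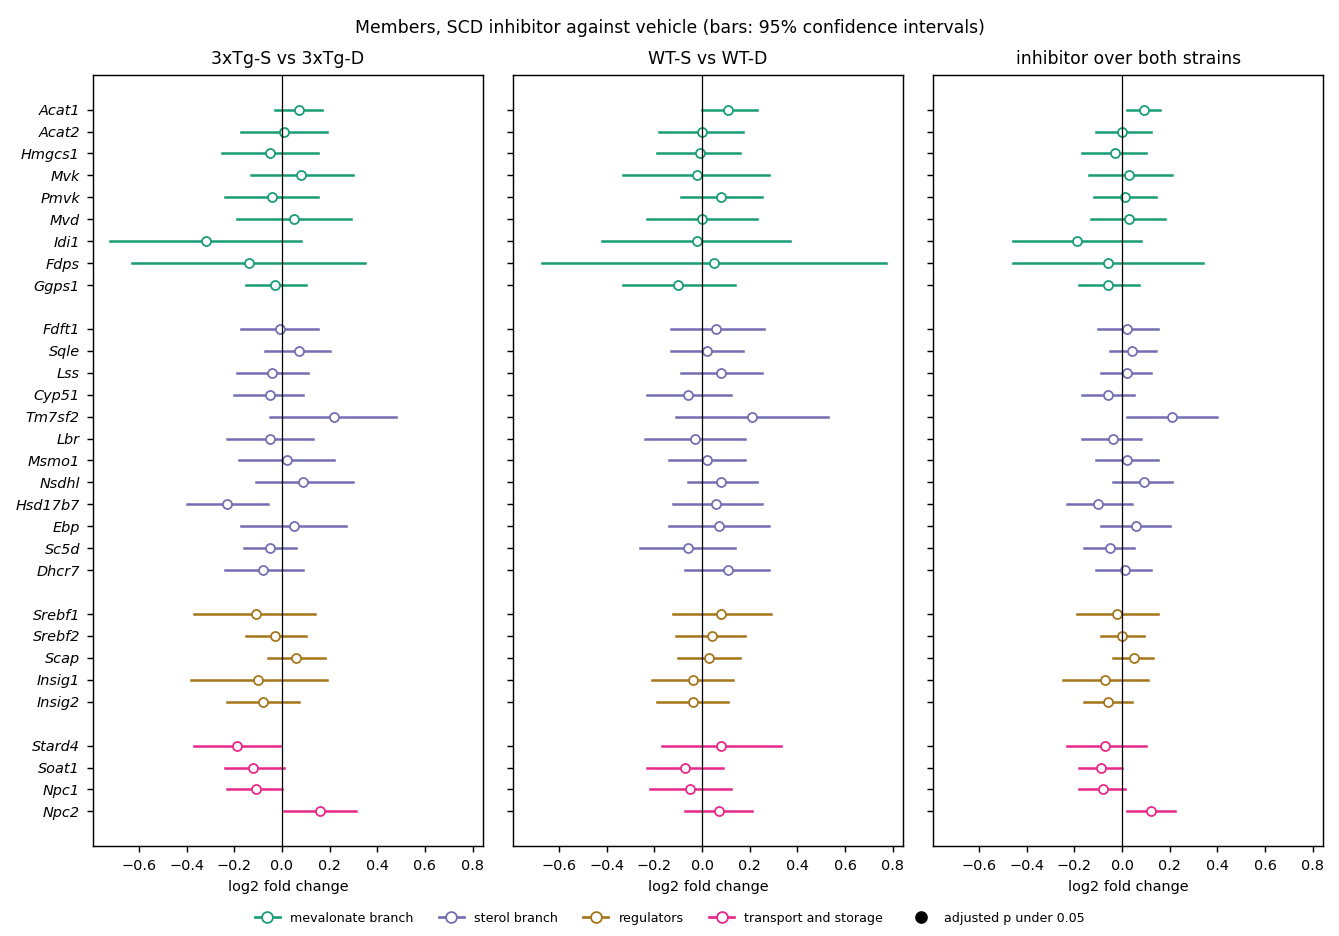
log2 fold change of each member under the SCD inhibitor against vehicle in 3xTg mice, in WT mice and over both strains, with 95% confidence intervals, coloured by role. No point is filled, and over both strains every interval lies between -0.46 and 0.40.

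A response in only 1 strain needs the test of the difference itself. The interaction of strain and inhibitor was called for 0 of 30 members, and for 0% of 16262 genes, by edgeR, and DESeq2 called 0 of the members. One member had an unadjusted p under 0.05, Hsd17b7, with an interaction of -0.29 on the log2 scale (SE 0.12, edgeR adjusted p = 1). At that threshold 196 of the 16262 genes had an interaction above 0 and 181 below. Likewise the strain difference was compared between the untreated 8-month and the vehicle-infused 10-month mice. It was called for 0 of 30 members by edgeR and by DESeq2, against 0.0621% of 16108 genes for edgeR. At an unadjusted p under 0.05 there were 4 of 30 members, all above 0, against 656 genes above 0 and 886 below of the 16108. Idi1 had the largest difference, from -0.55 at 8 months to 0.27 under vehicle, an interaction of 0.82 (SE 0.24, edgeR adjusted p = 0.392). Sc5d, at 0.08 and 0.31, had 0.23 (SE 0.09, adjusted p = 0.477), Hsd17b7 had 0.28 (SE 0.10, adjusted p = 0.463) and Stard4 0.31 (SE 0.15, adjusted p = 0.519). The strain differences of Msmo1 (0.22, SE 0.14) and Sc5d thus did not pass the test of a change between untreated 8-month and vehicle-infused 10-month mice.

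Genes beside the pathway were described by a list as well. Of 25 genes of sterol sensing, oxysterol formation and cholesterol handling, 22 were tested, and 1 was called at 8 months, where 2.58% of all genes were called. That was Cyb5r3, a reductase of the electron chain that serves sterol and fatty acid desaturases, with a log2 fold change of 0.33 (SE 0.06, edgeR adjusted p = 0.0176). Under vehicle 0 of 22 were called, with a median of -0.016, and the smallest p was that of Lipa, the lysosomal acid lipase, at 0.24 (SE 0.10, edgeR adjusted p = 0.32). Between strains under the inhibitor 0 of 22 were called, and Stard3, a late endosomal sterol carrier, was at 0.21 (SE 0.08, edgeR adjusted p = 0.353) and Rnf139 at 0.17 (SE 0.09, adjusted p = 0.541). For inhibitor against vehicle 0 of 22 were called in 3xTg mice, in WT mice or over both. Over both strains Nr1h3, the sterol-sensing receptor LXR alpha, was at 0.36 (SE 0.14, edgeR adjusted p = 0.283). Cyp27a1, a mitochondrial sterol hydroxylase, was at 0.25 (SE 0.10, edgeR adjusted p = 0.287). Both genes are low, at 1.34 to 3.03 CPM for Nr1h3 and 2.43 to 4.68 CPM for Cyp27a1 over all libraries.

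Of 12 fatty acid enzymes known as SREBP targets, 9 were below 0 at 8 months. Scd1, an isoform of the inhibited enzyme, was lower in 3xTg-8M than in WT-8M, with a log2 fold change of -0.35 (SE 0.07, edgeR adjusted p = 0.0208). The mean score of this list in 3xTg-8M lay below that of WT-8M in every library (-0.117 to 0.018 against 0.021 to 0.102), while the module score of the cholesterol genes overlapped and was higher on average. Under vehicle 0 of 12 were called. Acaca, acetyl-CoA carboxylase, was at 0.24 (SE 0.07, edgeR adjusted p = 0.134) and Acly, ATP citrate lyase, at 0.13 (SE 0.05, adjusted p = 0.293). For inhibitor against vehicle 0 of 12 were called in either strain. In 3xTg mice 11 of 12 were below 0 (median -0.067, against -0.002 over all genes) and in WT mice 5 of 12 (median 0.008). The interaction was below 0 for 11 of 12 (median -0.107), with 0 called. In 3xTg-S against 3xTg-D, Elovl6 was at -0.16 (SE 0.06, edgeR adjusted p = 0.401) and Scd1 at -0.17 (SE 0.08, adjusted p = 0.446). In WT-S against WT-D, Elovl6 was at -0.17 (SE 0.07, adjusted p = 0.981). For 3xTg-S against WT-S 0 of 12 were called and 9 were below 0, and the score of the list was 0.064 lower with no overlap (-0.154 to -0.003 against -0.001 to 0.024), with Scd1 at -0.22 (SE 0.07, adjusted p = 0.276). Scd1 was called for 3xTg-S against WT-D, at -0.27 (SE 0.06, edgeR adjusted p = 0.0265).

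How the members varied between mice of the same group was described with group means removed, over all 23 libraries. The median Pearson r of the 435 pairs of members was 0.082, and that of members with 16525 other genes 0.003. These points share libraries and their scaling, so the values are given as a description. Within the mevalonate branch the median was 0.174 (36 pairs) and within the sterol branch 0.146 (66 pairs). The enzymes that followed the mean of the other members most closely were Fdft1 (r = 0.81), Msmo1 (r = 0.76), Sqle (r = 0.73) and Pmvk (r = 0.66). Sc5d, although called beside Msmo1, was at 0.13, and Hmgcs1 at 0.27. Negative values were those of Npc1 (r = -0.53), Scap (r = -0.51), Soat1 (r = -0.31) and Srebf2 (r = -0.21). The remaining regulators and transport genes were above 0, with Stard4 at 0.59, Insig1 at 0.41, Insig2 at 0.26, Srebf1 at 0.18 and Npc2 at 0.16. Centred log2 CPM fell most with transcript length in 3xTg-8M replicate 4 and 3xTg-S replicate 2 (slopes of -0.123 and -0.1 per doubling). These libraries had the highest module scores of their groups. Members with negative r had transcripts of 4227 to 8371 bases, but Stard4 has 5097. Length was not corrected for here, and its part in these r was not tested. The closest pairs were Scap with Npc1 (r = 0.82), Mvd with Acat2 (r = 0.81) and Msmo1 with Sqle (r = 0.77). Outside the list, the genes most like the module score among those of at least 5 CPM were Sdr39u1 (r = 0.84), Nbdy (r = 0.83) and Pip4p1 (r = 0.80).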

How the data were processed

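Hippocampal RNA was purified from single mice, and per the study's methods polyadenylated RNA was read from one end. The submitters' processing notes name Trimmomatic 0.35, STAR 2.5.1b and GRCm38. The deposited values are whole-number read counts for each gene and mouse, neither scaled nor pooled by the authors. The 4 lines that name no gene held 24.7% to 30.9% of reads and were left out. Per the study's methods the adapters carried molecular identifiers. Whether these were used to collapse PCR copies, and whether counting used strand, is not given in the sources used here.

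For a comparison of 2 groups, only their libraries entered the fit, made with edgeR 4.0.16 in R 4.3.3 (filterByExpr, TMM scaling, quasi-likelihood test). Called genes have a Benjamini-Hochberg adjusted p under 0.05 over all genes tested. The study used a different likelihood ratio test, and DESeq2 1.42.0 was run as the alternative. Interactions and the inhibitor term used all libraries concerned. CPM levels were scaled by TMM over 23 libraries, and centred log2 CPM used a prior count of 2. Transcript lengths are those of each gene's longest transcript in the basic set of Gencode on GRCm38. The order of levels per kilobase depends on that choice, and the SD does not include it. The fits were tested on simulated data.

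The members and lists were chosen with earlier results of these data known. Values per library are given for members called anywhere, for Srebf1, Srebf2, Insig1, Hmgcs1, Sqle and Npc1, and for the 3 of smallest p in 5 of the comparisons. Of the other lists, called genes or those of smallest p, up to 2, are named, and some items are not reported here. Replicates are separate mice. Library pairs of a group had r of 0.984 to 0.993 on the log scale and differed beyond sampling noise. Animal numbers in runs of 4 were tried as a block. Deviations of same-run mice correlated over 0.1 in all 3 pairs of WT-D and WT-S (r of 0.12 to 0.18) and in no other pair of the 21. The block entered only an alternative fit, and the values given for WT-S against WT-D are unpaired.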

Additional observations from a re-analysis of the deposited data

Results flagged for a closer look

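Named members and the module score were examined for a sample standing apart from the others in groups of 4, by the gap to its nearest neighbour over the range of the group (Dixon's 95% limit of 0.829). Of 90 groups, 4 held such a sample, and chance gives about 1 in 20. Hmgcs1 in 3xTg-D replicate 3 was 270 CPM, against 352 to 361 in the others of its group. Cyp51 in 3xTg-S replicate 3 was 66.5 CPM, against 78.2 to 79.3. Dhcr7 in 3xTg-8M replicate 2 was 27.7 CPM, against 25.6 to 25.9. Idi1 in WT-8M replicate 1 was 3.97 CPM, against 3.23 to 3.31.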

How the results depend on the processing

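Across alternatives no followed member turned its direction, and counts of called members moved as follows. For 3xTg-8M against WT-8M (0 members) DESeq2 and removal of length and GC trends each gave 1, Cyp51, and an unadjusted p under 0.01 gave 3. For 3xTg-D against WT-D (2 members) removal of length and GC trends gave 1, without Sc5d, a fit of all 15 libraries of 10 months gave 1, without Msmo1, and leaving out 1 library gave 0 to 3. Of 14 alternative fits of this comparison, 2 called Hmgcs1, the one without 3xTg-D replicate 3 among them. For 3xTg-S against WT-S (0 members) no filter on low counts gave 3, DESeq2, the length and GC trends and the 15-library fit each gave 1, an unadjusted p under 0.01 gave 2, and leaving out 1 library gave 0 to 1, where the 1 was Sc5d without WT-S replicate 1. For 3xTg-S against WT-D (0 members) no filter gave 3, DESeq2 2, the length and GC trends 3, an unadjusted p under 0.01 4, and leaving out 1 library 0 to 2, with Sc5d called without WT-D replicate 2 and Hmgcs1 and Msmo1 without 3xTg-S replicate 3. For the strain effect compared between 8 and 10 months an unadjusted p under 0.01 gave 1, Idi1. At an unadjusted p under 0.01, genes were 484 higher and 582 lower of 15483 at 8 months. They were 324 and 325 of 15664 for 3xTg-S against WT-S, and 557 and 469 of 15567 for 3xTg-S against WT-D. For the strain effect between ages they were 149 and 203 of 16108. Counts over all genes are not given here for the length and GC trends, leaving out 1 library, or the 15-library fit under the inhibitor. Those member calls have no background beside them. The cause of these changes was not tested.

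No alternative called a member for the inhibitor. Deviations from the group means had a median r of 0.01 over the 21 pairs of mice of the same run of animal numbers, and the 3 over 0.1 were the 3 pairs of WT-D and WT-S. Pairs of different runs were over 0.1 in 6 of 63. In WT-S against WT-D the replicate block called 0 members and 0 genes, as without it. The replicate block gave 2 members for 3xTg-D against WT-D and 0 in every other comparison of 10 months, and changed no call of a member. Over all genes it gave 78 in place of 206 for 3xTg-S against WT-S. Without the filter, calls over all genes rose from 399 to 854 at 8 months, from 216 to 792 under vehicle, from 206 to 729 under the inhibitor, from 356 to 1135 for 3xTg-S against WT-D, from 10 to 33 for the strain effect between ages, and from 0 to 112 in 3xTg mice, 94 over both strains, 8 for the interaction and 2 in WT mice. DESeq2 gave 684, 386, 285, 577, 21, 14, 55, 0 and 0 in that order of comparisons. An unadjusted p under 0.01 gave 1066 at 8 months, 649 for 3xTg-S against WT-S, 1026 for 3xTg-S against WT-D and 352 for the strain effect between ages, and the 15-library fit gave 355 under vehicle. The module score was redone with a smaller prior count, DESeq2 size factors, members scaled to unit SD, and 1 library left out. Its differences moved by less than the pooled SD of 0.048 in each. That limit is larger than the inhibitor differences of -0.032 in 3xTg mice and 0.027 in WT mice, so it cannot show whether those held. The length and GC trends, the filter, the replicate block and the 15-library fit were not applied to the score. Leaving out 1 library gave 0.04 to 0.096 at 8 months, 0.113 to 0.145 under vehicle, 0.048 to 0.101 under the inhibitor, -0.051 to 0.001 for the inhibitor in 3xTg mice and 0.013 to 0.045 in WT mice.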
